A study of Mus musculus with 4 samples.

Results

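The region described here is the stretch chr3:9000001-14500000 of the mouse genome (GRCm38), 5.5 Mb read in 217 overlapping windows of 100 kb placed every 25 kb, of 109033 windows in the whole replication profile table. It was chosen by its polarity: near 11.4 Mb the profile had opposite signs in wild-type (WT) cells and in cells lacking Snf2h (KO), and the stretch from 9 to 14.4 Mb (window starts) was taken around that place. Differences between WT and KO inside the domain are therefore given as a description. A fit across all autosomal windows includes the domain, and its calls there support nothing. All 217 windows had a value in every library. At the left border, the first window (chr3:9000001-9100000) read 6.74 and 5.48 in WT and 16.8 and 13.3 in KO, and the window just outside it, which overlaps it, read -1.74 and -4.45 in WT and -3.03 and 0.658 in KO. At the right border, the last window (chr3:14400001-14500000) read -12.9 and -8.62 in WT and -23.9 and -34.2 in KO, and the next window outside read -12.8 and -8.18 for WT, -20.7 and -29.1 for KO.

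The data are 4 TrAEL-seq libraries from the mouse embryonic stem cell line 129S6/SvEvTac, grown on gelatin in medium with foetal calf serum and leukaemia inhibitory factor (LIF): 2 from WT cells and 2 from Snf2h KO cells, with each genotype cultured in duplicate. The labels do not say how the KO line was made or how many clones were used, and a DNA assay offers no check of Snf2h expression or of stem cell markers. All 4 libraries were sequenced in a single lane. The index in the name of WT replicate 2 differed between its label and its data column. The deposited value, called polarity here, is a signed strand imbalance of the captured DNA ends in percentage points (points), bounded at -50 and 50. The table gives no read counts, so depth is unknown. The swing of the profile, measured as the SD over autosomal windows, came to 14.6 and 12.8 points for WT replicates 1 and 2, against 19.5 and 14.5 points for the KO pair, so KO replicate 1 stood apart. The differences at the named window and over the KO rise are given with and without WT replicate 2 and KO replicate 1.

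TrAEL-seq tags free 3′ ends of DNA, which are abundant at replication forks, and the strand that carries them shows the direction in which most forks travel through a window. In mammalian cells replication starts in broad initiation zones, often next to active genes, and forks leaving such a zone in both directions make the profile cross 0. Converging forks make it cross 0 the other way, usually over longer and more diffuse stretches. The sources used here do not state which strand is counted as positive, so rises and falls of the profile are described as such and are not assigned to initiation or to fork convergence. Snf2h (Smarca5) is the ATPase of the ISWI chromatin remodelling complexes, which slide and space nucleosomes. In stem cells it is known for the regular nucleosome arrays beside CTCF sites, and ISWI complexes have been linked to replication through compact chromatin.

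RefSeq (GRCm38.p6) lists 55 entries in the domain, of which 16 are protein-coding genes, 16 are long noncoding RNAs and 23 are pseudogenes. The protein-coding genes lay at both ends. A cluster from Tpd52 to Snx16 occupied the left part, and Ralyl and Slc7a12 the right end. Between the end of Snx16 and the start of Ralyl lay 3.03 Mb (chr3:10440132-13471654) without a protein-coding gene, holding 10 pseudogenes and 2 long noncoding RNAs. The window named by the choice, chr3:11400001-11500000, overlapped no RefSeq entry. Its centre lay 1.01 Mb from Snx16, 2.02 Mb from Ralyl and 0.208 Mb from the nearest entry, the pseudogene Gm8919. Promoter sequences from RefSeq were matched by symbol for 4 of the 55 entries, none of them protein-coding. One of these, that of the long noncoding RNA 4930539M17Rik, lay in a rise of the profile found in all 4 libraries (chr3:9061714-9062013, plus strand, 300 bases, start site included) and is shown because it is the 1 promoter sequence at hand from the 3 highest rises of the domain, with each CG in capitals:
4930539M17Rik promoter: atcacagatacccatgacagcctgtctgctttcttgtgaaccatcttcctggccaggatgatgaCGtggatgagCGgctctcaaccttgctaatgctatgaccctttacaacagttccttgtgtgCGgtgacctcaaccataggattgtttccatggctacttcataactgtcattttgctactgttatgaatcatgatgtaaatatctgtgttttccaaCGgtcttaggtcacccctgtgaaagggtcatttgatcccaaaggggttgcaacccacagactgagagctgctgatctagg
This window holds 4 CG (searched as the letters CG, which read the same on both strands) and 46.3% G and C. The median over all 32851 promoters of the same length in the table was 7 CG, 94.6% held at least 1 and 62.0% at least 5.

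In the named window the WT libraries read 15.7 and 19.4 points and the KO libraries -11.5 and -11.1 points. Both WT values were thus clearly positive and both KO values clearly negative, with no overlap. WT averaged 17.6 ± 2.60 and KO -11.3 ± 0.299 points (SD, n = 2 each), a difference of -28.8 points. The pooled replicate SD at this window was 1.85 points, and the fit across all autosomal windows gave the difference an SE of 4.52 points. The domain was chosen on this window, so neither value lends the difference support. Without WT replicate 2 the difference was -27.0 points, and without KO replicate 1 it was -28.6 points. The lowest difference in the domain lay 2 windows further on (chr3:11450001-11550000), where WT read 18.6 and 20.0 and KO read -14.1 and -9.79, a difference of -31.3 points.

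**Figure D1:**
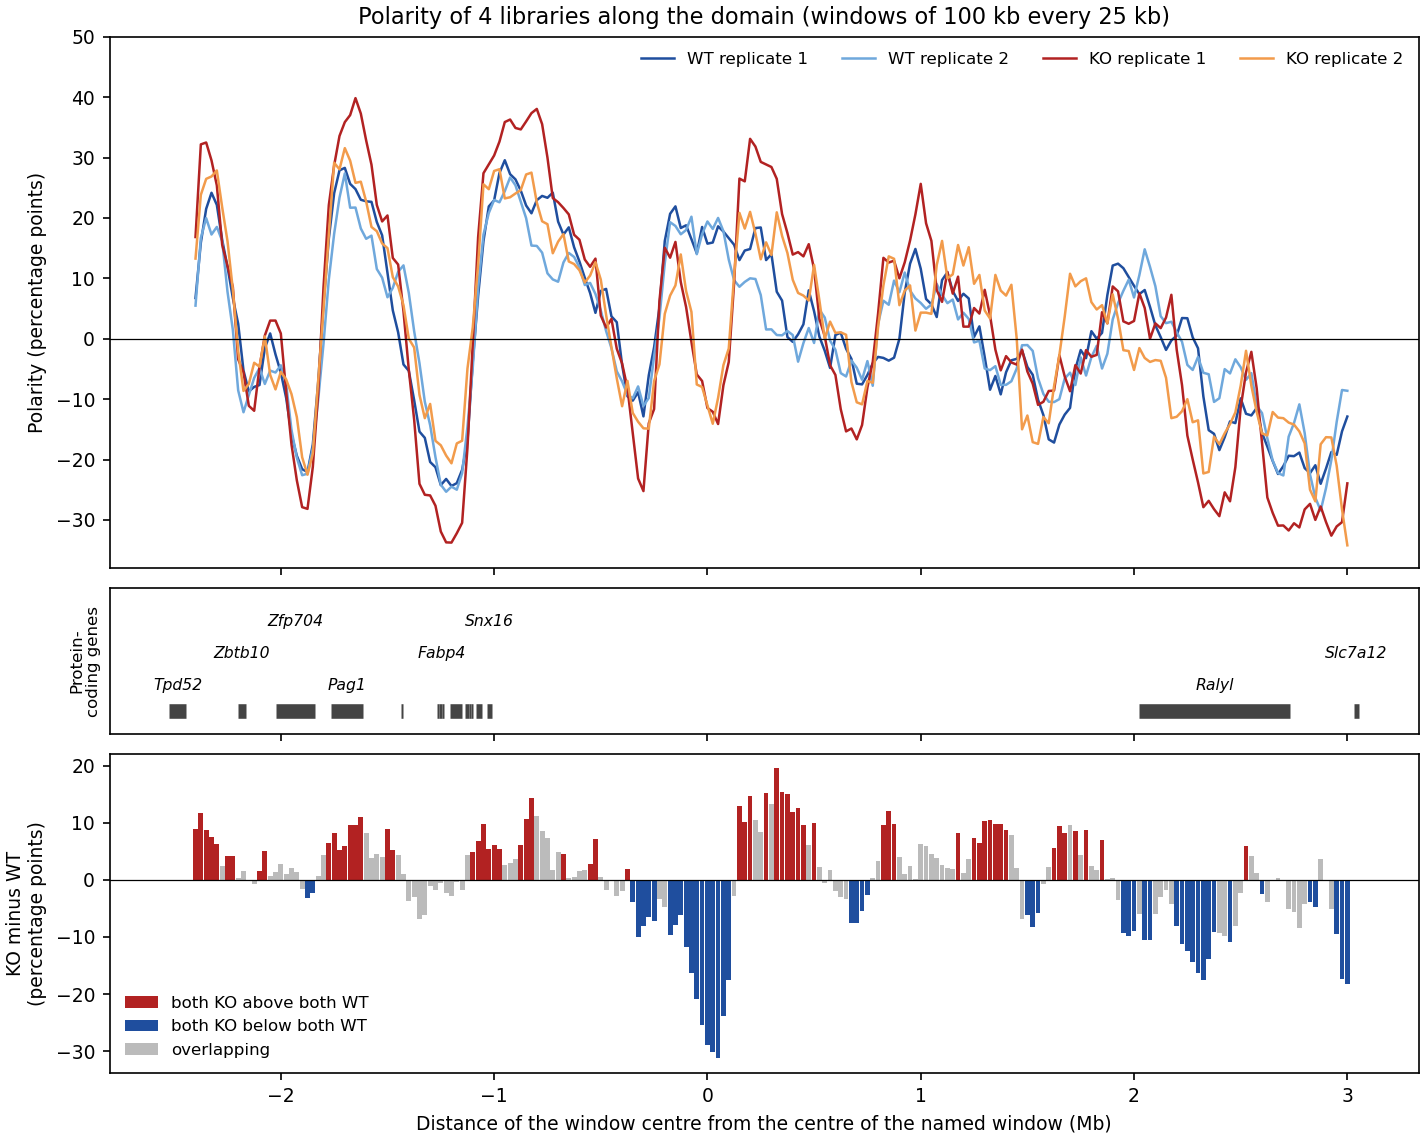
Polarity of each library in percentage points (top), protein-coding genes (middle) and the KO minus WT difference of the genotype means (bottom) over the 217 windows, against distance from the centre of the named window in Mb. The 4 profiles rise and fall at the same places over the gene cluster on the left and part around 0, where KO falls below 0 and WT averages 17.8 points.

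The sign change was part of an excursion of the KO profile that the WT profile did not make. From the rise near 11.22 Mb, which all libraries shared, WT polarity stayed at a plateau: over the 12 consecutive windows from 11225001 to 11600000 in which both KO values lay below both WT values, it averaged 17.8 points in each WT library. Over the same windows KO averaged -1.55 and -1.19 points. In KO the profile climbed in the shared rise, dropped back through 0 and then climbed again, giving a trough with its floor next to the named window.

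The right-hand side of the trough was steep. Between the window at 11450001 and the window at 11600001, KO polarity went from -14.1 to 33.1 points in replicate 1 and from -9.79 to 21.0 points in replicate 2. WT polarity went from 18.6 to 14.9 and from 20.0 to 10.0 points. By the window chr3:11725001-11825000, which had the highest KO minus WT difference of the domain, WT read 7.78 and 0.610 and KO read 26.5 and 20.9. Here both KO values lay above both WT values, and the difference was 19.5 points (pooled SD 4.53).

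**Figure D2:**
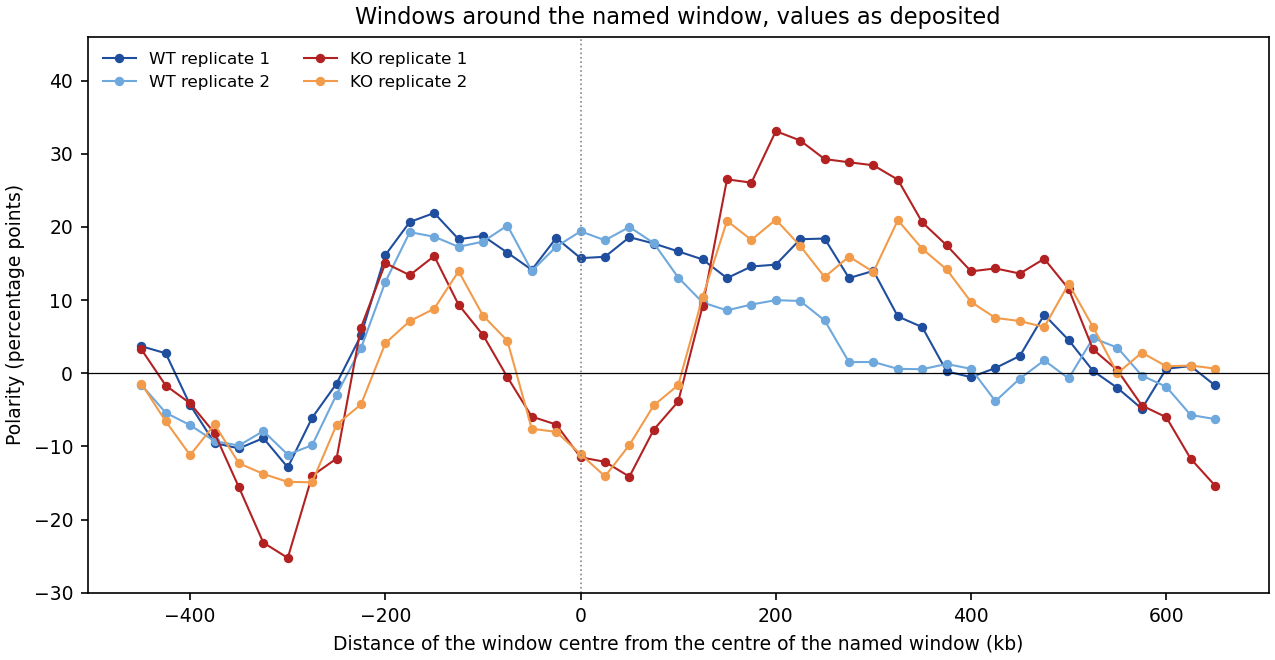
Polarity as deposited in every window around the named one, in percentage points, against distance from its centre in kb, with 1 line for each library. Both KO lines fall below 0 where both WT lines stay between 13.1 and 20.0 points, then cross above them.

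The transitions were next measured as segments. A rise or fall was a stretch between neighbouring extremes of the profile, after a running mean of 5 windows, over which it changed by at least 1 SD of the library. Both KO libraries had a fall centred at 11.38 Mb (-22.5 and -18.6 points) and a rise centred at 11.57 Mb (40.8 and 28.2 points) for which neither WT library had a counterpart. This held for the rise under all the settings of running mean and minimum change that were tried. The RefSeq entry under this KO rise was Gm8919, and no protein-coding gene lay there.

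The profile was also read over 1 fixed interval for all libraries (11450000 to 11650000), called on the KO mean profile. It changed by -0.741 and -8.75 points in WT and by 39.5 and 28.2 points in KO. That KO rose follows from how the interval was chosen, while neither WT library rose over it. WT averaged -4.75 ± 5.67 and KO 33.9 ± 7.95 points (SD, n = 2 each), which differ by 38.6 points with a pooled SD of 6.90. This difference was 34.6 points without WT replicate 2 and 33.0 points without KO replicate 1, and 36.1 points when every library was scaled to the same autosomal SD. The interval of the preceding fall (11300000 to 11450000) was likewise called on the KO mean profile. WT changed over it by -2.59 and 0.629 points, whereas KO changed by -21.9 and -18.5 points, a difference of -19.2 points (pooled SD 2.36).

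The 3 rises over the gene cluster were common to all libraries. The first, centred at 9.02 Mb over the left border, covered Tpd52, a gene linked to vesicle traffic, and the promoter printed above. Its height was 44.4 and 39.4 points for WT against 58.2 and 56.2 points for KO. The second, at 9.66 Mb, lay between Zfp704, a zinc finger gene, and Pag1, which encodes a membrane adaptor that holds Csk near Src family kinases. WT rose there by 45.4 and 42.1 points, and KO by 60.4 and 45.5 points. The third, at 10.38 Mb, ran from Fabp12 through Impa1, Slc10a5, Zfand1 and Chmp4c to Snx16. The WT libraries climbed 50.5 and 48.7 points over it, and the KO libraries 68.7 and 44.3 points. KO replicate 1 had the highest rise at each of the 3 places, whereas KO replicate 2 lay below both WT libraries at the third.

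This order depended on the scale of the libraries. Over fixed intervals called on the WT mean profile, the KO minus WT difference in height was 14.5, 8.41 and 5.60 points at the first, the second and the third rise. After each library was scaled to the same SD the same differences were 4.95, -1.71 and -6.29 points, so the direction turned at both of the latter. In every library each of these 3 rises was higher than any other rise in the domain. The lowest of the 3 measured 44.4 and 39.4 points for WT, and 58.2 and 44.3 for KO. The highest of the others reached 29.2 and 28.3 points for WT, and 40.8 and 28.2 for KO.

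The rises in the part without protein-coding genes were smaller. The rise at 11.22 Mb, with no RefSeq entry beneath it, was found in all 4 libraries, with heights of 28.8 and 28.3 points for WT against 29.9 and 21.0 for KO. Over the fixed interval called on the WT mean profile (11125000 to 11325000) WT changed by 28.8 and 28.3 points and KO by 25.9 and 21.0 points, without overlap (difference -5.05 points, -10.7 after scaling). Another shared rise was centred at 12.28 Mb and covered the pseudogene Gm37996. WT climbed 16.3 and 13.9 points there and KO 34.1 and 18.4 points, so the genotypes did not overlap. Over the fixed interval called on the WT mean profile, however, WT changed by 16.3 and 12.6 points and KO by 30.4 and 13.9 points, which do overlap.

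Towards Ralyl, a gene for an RNA-binding protein found mainly in neurons, a rise was lower in height in KO. Over the interval 13075000 to 13450000, called on the WT mean profile, WT rose by 23.9 and 19.3 points, whereas KO rose by 11.5 and 4.01 points. The difference was -13.8 points (pooled SD 4.39), and -17.4 points after scaling. KO did not lie below WT throughout: in the window at 13075001 it exceeded WT by 8.28 points, without overlap. In KO replicate 2 a rise of 24.0 points was instead called further left, from 12975000 to 13200000. At the right border a rise ended at 14675000 in all 4 libraries. Read from 14325000, an interval called on the WT mean profile, it measured 28.7 and 31.7 points for WT against 23.2 and 13.1 for KO, with no overlap. As called in each library it measured 29.2 and 17.6 points for WT against 24.0 and 21.9 for KO, which do overlap.

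**Figure D3:**
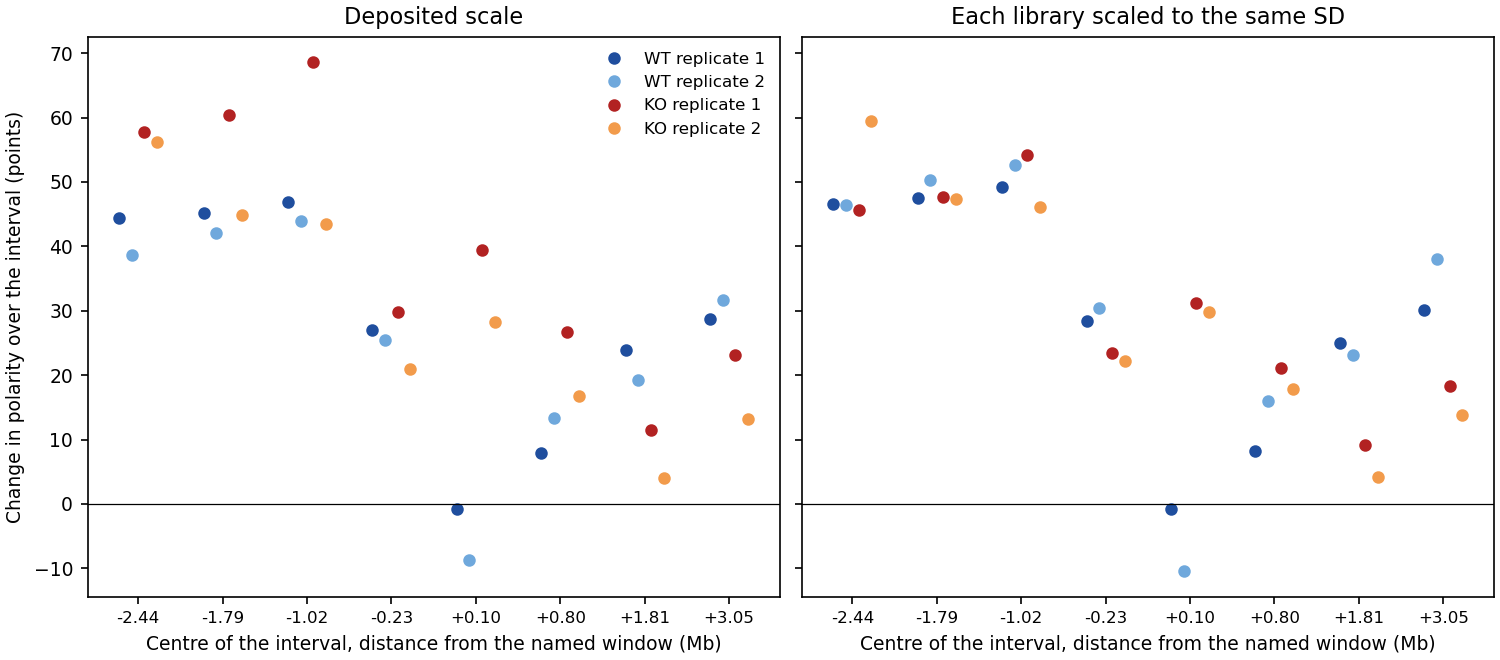
Change in polarity over 8 fixed intervals, 1 point for each library, in percentage points on the deposited scale (left) and after scaling each library to the same autosomal SD (right), against the distance of the interval from the named window. At the fifth interval, called on the KO mean profile, WT lies at or below 0 and KO at 39.5 and 28.2 points on the left panel. This gap stays after scaling.

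Counted by their midpoints, the WT libraries had 7 rises each in the domain and the KO libraries 6 and 7. Falls numbered 6 and 10 for WT, and 8 and 7 for KO. The genotypes overlapped in the count of falls and touched in the count of rises, and other settings separated them in either direction: rises numbered 6 and 6 for WT, 5 and 4 for KO with a running mean of 9 windows, but 7 and 7 against 8 and 9 at a minimum change of 0.5 SD. Falls numbered 6 and 5 for WT, 9 and 7 for KO at a minimum change of 30% of the bound. Apart from the fall at 11.38 Mb and the rise at 11.57 Mb, a fall centred at 11.94 Mb was called in both KO libraries, and a fall at 12.70 Mb and a rise at 13.26 Mb in both WT libraries and in neither KO library. At the place of the 11.94 Mb fall WT fell too, without a segment called at the same midpoint. Over the interval 11650000 to 12150000, called on the KO mean profile, the changes were -21.0 and -14.1 points for WT, -43.2 and -25.1 for KO. Near the 12.70 Mb fall KO fell too. Over 12550000 to 12825000, called on the WT mean profile, WT changed by -14.2 and -13.3 points and KO by -11.8 and -3.05. Over 12575000 to 13000000, called on the KO mean profile, WT changed by -17.7 and -12.2 points and KO by -17.2 and -27.8. KO replicate 2 had a fall of its own called at 12.9 Mb. The rise ending at 14675000 counted in WT replicate 1 alone, since its midpoint lay beyond the domain in KO (14.525 and 14.575 Mb) and in WT replicate 2 (14.6 Mb), where an earlier rise at the border was counted instead. Rises were steeper than falls in every library: the median slope of rises was 14.4 and 14.1 points per 100 kb for WT, with 21.1 and 14.1 for KO. The median slope of falls was 9.91 and 6.97 for WT, with 12.5 and 9.93 for KO.

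The places where the profile crossed 0 were found by linear interpolation of the smoothed values. At the 3 gene-cluster rises the 4 libraries crossed within a range of 15.0 kb (at 9.03 Mb), 14.0 kb (9.64 Mb) and 21.5 kb (10.35 Mb), each less than the 25 kb window step. Falling crossings were looser, with ranges of 29.3 kb at 9.25 Mb, 72.8 kb at 10.04 Mb, 40.0 kb at 11.00 Mb and 73.8 kb at 12.02 Mb. The rising crossing at 12.26 Mb spanned 95.6 kb, with WT replicate 1 farthest to the right. At each of these rising crossings both KO libraries lay to the left of both WT libraries. The mean KO minus WT shifts were -8.95, -7.25, -14.3 and -50.1 kb, in order of position (pooled SD 4.42, 6.45, 6.37 and 42.4 kb).

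Next to the KO-specific excursion the shared rising crossing was displaced the other way. The WT libraries crossed upward at 11.199 and 11.207 Mb and the KO libraries at 11.219 and 11.241 Mb. Both KO crossings thus lay to the right, by 27.2 kb on average (pooled SD 11.4 kb), about the size of 1 window step. The KO libraries then crossed downward at 11.376 and 11.386 Mb and upward again at 11.543 and 11.539 Mb, so the replicates placed these crossings 9.31 and 4.57 kb apart. WT crossed 0 at neither place. In WT replicate 1 the smoothed profile stayed above 0 for 32 consecutive windows, from 11150001 to 12025000, the longest positive stretch of that library in the domain. In the other libraries the longest positive stretch, of 25 to 26 windows, began at 10300001 or 10325001, over Chmp4c and Snx16.

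**Figure D4:**
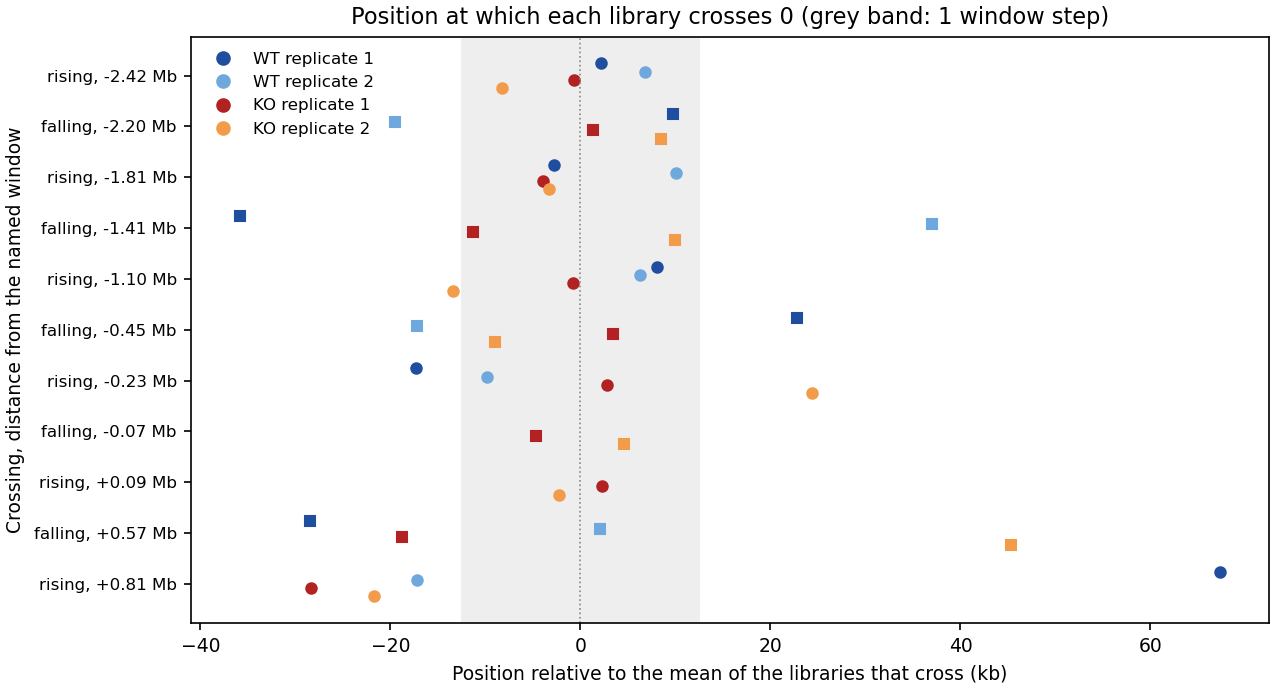
Position at which each library crosses 0, relative to the mean of the libraries that cross there, in kb, for the 9 crossings shared by all libraries and the falling and rising crossing found in KO (circles rising, squares falling). The rising crossings over the gene cluster fall within a range of 21.5 kb or less, and at each crossing found in KO alone, on either side of the named window, the replicates lie 9.31 kb apart or less.

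Taken over all its windows, the domain lay close to the rest of the autosomes. Both KO values exceeded both WT values in 60 of 217 windows (27.6%; 22.2% over all 94694 autosomal windows) and were below both in 46 (21.2%; 22.5% over the autosomes). After scaling, the counts were 59 and 48 windows (22.5% in each direction over the autosomes). These shares are near the background and say nothing particular about the domain. The mean absolute difference was 6.57 points in the domain and 5.18 over the autosomes, and the median difference was 1.33 and -0.0662 points. Neighbouring windows share most of their reads and are not independent.

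In 11 of the 217 windows all WT values and all KO values lay on opposite sides of 0 (5.07%; 4.24% over the autosomes). Of these, 7 followed each other, with starts from 11350001 to 11500001, and WT was positive in each. An isolated window at 9325001 and a pair at 12700001 and 12725001 had the reverse signs, and a window at 13600001 had WT above 0 and KO below. At 12700001 WT read -3.05 and -4.93 and KO read 8.10 and 4.67 points.

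Runs of at least 5 consecutive windows without overlap between genotypes numbered 8 in the domain, against 10 in the stretch of the same length on its left and 9 in that on its right. After scaling there were 5 in the domain and 9 in each of the others. Such runs were not counted over the rest of the autosomes. Beside the 12-window run at the named window, 8 windows from 13600001 to 13875000 in Ralyl were lower in KO, with a mean difference of -12.9 points. WT averaged -4.31 and -4.24 points there, and KO -19.0 and -15.4 points. A run of 7 windows from 12650001 to 12900000 was higher in KO by 8.97 points, and a run of 6 windows from 11725001 to 11950000 by 14.0 points. These 4 runs remained after scaling, the first with 14 windows and the run at 12650001 with 9. The runs starting at 9000001, 9625001 and 10300001, near the crests over the gene cluster and higher in KO by 8.63, 7.99 and 6.39 points, were not found after scaling. The remaining run, from 11050001 to 11250000 with a difference of -7.14 points, was not found after scaling either. A run of 8 windows from 13325001 to 13600000, with a scaled difference of -9.68 points, appeared after scaling only.

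In the test across windows (limma 3.58.1 on 23672 autosomal windows that do not overlap, adjusted by Benjamini-Hochberg at a threshold of 0.05), 1 of the 55 such windows in the domain was called, the named window itself. Over the autosomes 13 were called (0.0549%). Since the domain was chosen on this window, the call is given as a description only. It was lost without WT replicate 1, without WT replicate 2 and on an atanh scale (lowest adjusted p in the domain 0.388 by limma), while 6 windows (10.9%) were called without KO replicate 1 and 15 (27.3%) without KO replicate 2. Over the autosomes the same fits called 5.79% and 20.2% of windows.

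The 16 protein-coding genes were read in the window nearest each gene's midpoint. These were 14 different windows, since neighbours share them. For Tpd52 and Slc7a12, which straddle the borders, that window lay just outside the domain. Both KO values exceeded both WT values for 4 genes, lay below for 2 and overlapped for 10 (8 above and 2 below after scaling). Over all autosomal windows 22.2% lay above and 22.5% below as deposited, and 22.5% each way after scaling, so the deposited counts for 16 genes are near the background. The median KO minus WT difference over the genes was 1.22 points, and 9 of the 16 overlapped one of the shared rises.

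The fatty acid binding protein genes, which encode carriers of long-chain fatty acids, lay before and at the start of the third rise. Fabp5 lay near the falling crossing at 10.04 Mb, Fabp4 and Fabp9 in the trough that followed, and Fabp12 at the foot of the rise. Fabp4, known from fat cells and macrophages, and Fabp9 shared a window that read -24.2 points in each WT library, and -31.9 and -17.6 points in the KO libraries. The KO replicates lay on either side of WT. Fabp12 read -23.9 and -25.0 for WT, -32.2 and -17.3 for KO. Fabp5, made in skin and many other tissues, read -4.26 and 12.1 for WT, 4.55 and 5.56 for KO. None of the 4 Fabp genes, read in 3 windows, separated the genotypes on the deposited scale (median difference -0.450 points; 22.2% of autosomal windows were higher and 22.5% lower in KO), but after scaling the median turned to 5.26 points and the window of Fabp4 and Fabp9 was higher in KO, as were 22.5% of autosomal windows. Pmp2, a myelin protein of the same family, read -21.3 and -19.6 points for WT, -27.7 and -16.9 for KO.

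The list for endosome and membrane traffic held 3 genes, all on the slope of the third rise. Chmp4c, a subunit of the ESCRT-III membrane scission machinery, read 7.10 and 8.47 points for WT, 16.8 and 12.3 for KO. Snx16, a sorting nexin of endosomes, read 21.9 and 20.8 for WT, 28.9 and 24.8 for KO. Zfand1, better known for the clearance of stress granules than for traffic, read -3.73 and -4.72 for WT, -0.718 and 1.95 for KO. All 3 were higher in KO, with a median difference of 5.45 points, and 2 of the 3 remained so after scaling, all but Snx16. Over the autosomes 22.2% of windows were higher as deposited and 22.5% after scaling, and the 3 windows share sequence, so the count says nothing particular about these genes. Tpd52, which is also linked to vesicle traffic but stood in the signalling list, overlapped between genotypes (-18.3 and -21.5 points for WT, -31.0 and -19.1 for KO). The KO profile crossed 0 in this rise, at 10.35 Mb, with a shift of -14.3 kb against WT (pooled SD 6.37 kb), and whether that shift bears on these windows was not tested.

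Of the others, Pag1 held the window with the highest mean polarity of both genotypes (28.3 and 27.4 in WT, 35.9 and 31.6 in KO). It was higher in KO as deposited, by 5.88 points, and overlapped after scaling, where the difference was -0.388. The transcription factor genes Zbtb10 and Zfp704 overlapped: Zbtb10 read -5.27 and -12.2 in WT and -5.56 and -8.65 in KO, and Zfp704 read -19.4 and -19.7 in WT and -23.4 and -13.0 in KO. Impa1, the inositol monophosphatase, and its neighbour Slc10a5, a member of the bile acid carrier family, shared a window that read -17.0 and -14.6 in WT and -18.1 and -4.94 in KO. After scaling that window and the window of Zfp704 were higher in KO. Ralyl, read at the middle of its 711 kb, was lower in KO (-15.7 and -10.5 in WT, -28.2 and -16.2 in KO) on both scales.

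The profile swung more over the gene cluster than over the stretch to its right. Over the 56 windows of the gene cluster the SD of polarity came to 17.1 and 15.5 points for WT, 23.1 and 16.7 for KO. Over the 121 windows centred between Snx16 and Ralyl, the outermost of which reach into these genes, it came to 11.2 and 9.52 points for WT, 15.1 and 11.2 for KO. The SD was thus larger in the gene cluster in 4 of 4 libraries. Genotypes did not overlap in 24 windows of the gene cluster (42.9%), 22 of them higher in KO, in 64 windows of the stretch between Snx16 and Ralyl (52.9%), 37 of them higher, and in 18 of the 40 windows on the Ralyl side (45.0%), 17 of them lower in KO. The share over the autosomes was 44.6%, made up of 22.2% higher and 22.5% lower in KO. After scaling, 24 windows of the gene cluster were higher and 0 lower in KO. Between Snx16 and Ralyl 33 were then higher and 32 lower, and on the Ralyl side 2 higher and 16 lower. Over the autosomes 22.5% lay each way after scaling. The correlation of the replicates over windows, which overlap, was lower to the right. For KO it was 0.967 in the gene cluster, 0.842 in the stretch between Snx16 and Ralyl and 0.705 on the Ralyl side. For WT it was 0.948, 0.902 and 0.898. A correlation also depends on the swing of the profile, which was larger over the gene cluster. These values therefore do not show how closely the replicates agreed in points.

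The stretches of 5.5 Mb on either side, which the choice did not use, were tested with the same fit. None of their 106 non-overlapping windows was called by limma (26 had an unadjusted p under 0.05, as had 2889 of the 23672 autosomal windows), against the 0.0549% called over the autosomes. Without KO replicate 1 the count was 11 (10.4%; 5.79% over the autosomes in that fit), and without KO replicate 2 it was 32 (30.2%; 20.2% over the autosomes). Genotypes did not overlap in 51.2% of the 217 windows on the left and in 59.7% of the 211 on the right, against 48.8% in the domain and 44.6% over the autosomes. After scaling the shares were 51.2%, 54.0%, 49.3% and 45.1%. The differences between these shares were not tested.

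From the right border on, the KO profile lay lower over 22 consecutive windows (14425001 to 15050000), the first of which overlap the last window of the domain, with a mean difference of -14.4 points (-12.5 after scaling). WT averaged -3.75 and -3.32 points and KO -19.1 and -16.8 points. This run continues the difference seen in the last windows of the domain and covers Slc7a12, the cell cycle regulator E2f5 and the carbonic anhydrase genes Car13, Car1, Car3 and Car2, whose enzymes interconvert carbon dioxide and bicarbonate. In the window of Car13 WT read 9.23 and 6.22 and KO read -5.19 and -5.65 points, so the signs were opposite there as well. In the window of Car3 WT read -12.2 and -8.57 and KO read -26.6 and -28.0 points. The lowest adjusted p of either flank in limma's test was 0.0954, at chr3:14800001-14900000. The difference there was -20.8 ± 4.64 points (SE, n = 2 each), both KO values being below both WT values. With each library scaled and a replicate block, limma gave this window an adjusted p of 0.0113. That fit called 2.76% of autosomal windows.

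**Figure D5:**
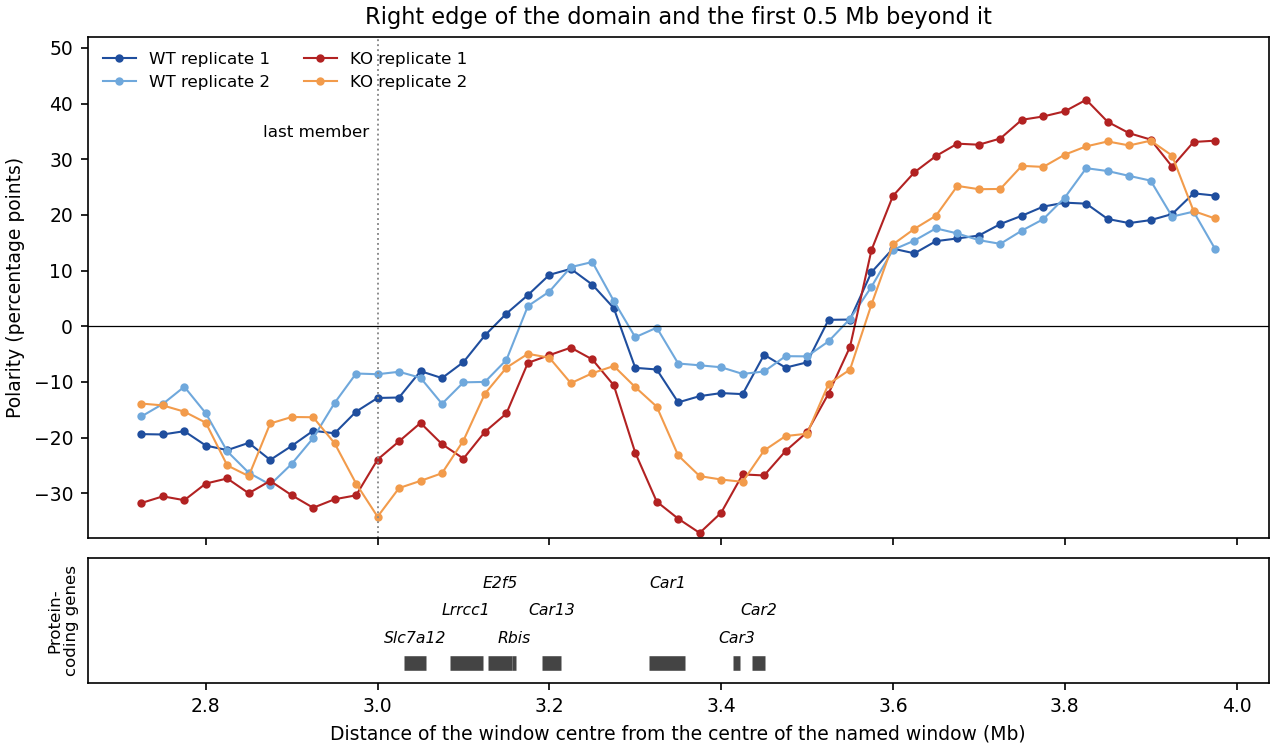
Polarity of each library in percentage points (top) and protein-coding genes (bottom) across the right border of the domain, marked by the dotted line, against distance from the named window in Mb. WT rises above 0 at the window of Car13 (9.23 and 6.22 points) while KO stays below 0 (-5.19 and -5.65 points), and the 4 libraries cross 0 together further right.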

How the data were processed

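Polarity was taken from the authors' deposited table, whose values are a score per window and library: a signed strand imbalance in percentage points. Per the file headers, reads were aligned with bowtie2 to GRCm38 plus rRNA and deduplicated. The submitters' processing notes name Trim Galore 0.6.5 and Bowtie2 2.4.1. The program that made the score, its strand convention and any read minimum are not given in the sources used here, and read depth is unknown. Such windows average sharp transitions over 100 kb.

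Analyses used full-length windows on 19 autosomes with values in all 4 libraries. Windows were tested with limma 3.58.1 (R 4.3.3; lmFit, eBayes) over 23672 windows spaced 100 kb, without a replicate block. On simulated data it recovered 200 of 200 windows shifted by 30 points, with 10 false calls. The simulated noise was normal and independent, with the same SD for all 4 libraries of a window. The real libraries differ in swing, so recovery under their conditions and for smaller shifts was not tested. The libraries of a genotype are duplicate cultures per the labels, and p-values measure only the spread between them. Scaling set each library to the mean autosomal SD. Segments needed a change of 1 SD on a running mean of 5 windows, and crossings counted as shared when within 100 kb. Genes came from RefSeq (GRCm38.p6), with intervals only.

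Named genes were the protein-coding genes at the named window or nearest it, at the windows of highest and lowest polarity and difference, and in gene lists by function. Pmp2, Slc7a12 and the genes beyond the right border fall outside that rule and were added after their values were seen. Members and lists were chosen with earlier results of these data known. Python 3.11.15, numpy 2.4.6, pandas 2.3.3 and matplotlib 3.10.9 were used.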

Additional observations from a re-analysis of the deposited data

How the results depend on the processing

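The difference at the named window stayed between -27.0 and -30.7 points under every alternative tried. The KO minus WT change over the interval of the KO rise (38.6 points) ranged from 33.0 to 44.2 without each library in turn and was 30.1 with a running mean of 9 windows; the alternatives to this result were added once the data had been seen. The number of windows called by limma in the domain (1) was 5 with a replicate block, 2 with each library scaled and 5 with scaling and a replicate block. Over the autosomes these fits called 2.66%, 0.38% and 2.76% of windows, against 0.0549% in the main fit. With limma's trend and robust options, over overlapping windows and on an atanh scale the autosomal shares were 1.28%, 0.076% and 0%. The number in the domain was then 3, 4 and 0 (8 with an unadjusted p under 0.05 on the atanh scale). It ranged from 0 (without WT replicate 1, and without WT replicate 2; 7 and 4 with an unadjusted p under 0.05) to 15 (without KO replicate 2) when each library was left out, the lone library then being assumed to vary like the other genotype. In the flanks the count (0) was 2 with a replicate block, 5 with scaling and a replicate block and 1 with trend and robust options, and ranged from 0 to 32 without each library, reaching 11 without KO replicate 1 and 32 without KO replicate 2. As shares of the flank windows, the fits with a replicate block, with scaling and a replicate block and with trend and robust options called 1.89%, 4.72% and 0.943%. The same fits called 2.66%, 2.76% and 1.28% over the autosomes, so only the fit with scaling and a replicate block exceeded that background in the flanks. The cause of these changes in count was not tested.

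Same-numbered libraries deviated from their genotype means together (r = 0.241 over 23672 windows, 0.335 in the domain), but the labels link them by number only. Replicate 1 also had the larger autosomal SD in both genotypes (14.6 against 12.8 points for WT, 19.5 against 14.5 for KO). Whether that bears on r was not tested. The 106 windows without overlap became 23 of 55 when spaced 100 kb apart (41.8%), and 132 to 188 without each library, where fewer libraries have to separate. The autosomal share of windows without overlap (44.6%) was taken over overlapping windows with all libraries. It is no background for the spaced windows or for fewer libraries, so nothing is concluded from those counts. The mean absolute difference (6.57 points) was 5.77 after scaling, 6.0 with a running mean and 6.15 to 8.39 without each library. KO minus WT in the mean number of rises (-0.5) was 0 with a running mean of 3, -1.5 with 9, 1.5 at a minimum change of 0.5 SD and 1 at 30% of the bound, and -1 to 0 without each library. For falls (-0.5) it was 2.5 at 30% of the bound and -2.5 to 1.5 without each library. For these counts too the cause was not tested. Having 2 libraries a genotype, unknown depth and 100 kb windows limits each value.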
